A study of Mus musculus with 8 samples.

Results

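The 34 genes described here encode the steps of glycolysis, the carriers that bring glucose in and lactate out, and the HIF-1 pathway with its best known targets. They were chosen by gene symbol, and all 34 were among the 11415 genes of the deposited table. The RNA came from macrophages grown from the bone marrow of 129S6/SvEvTac mice with the genotype IL10-/-RAG2-/-, cultured for 5 days in medium conditioned with M-CSF, the growth factor that turns marrow precursors into macrophages. All 4 groups carried both deletions, so the cells had no functional Il10 gene of their own, and mice without Rag2 lack mature T and B lymphocytes. In the group called IL-10 throughout, cells received 1 ng/mL LPS, the bacterial lipopolysaccharide, together with 1 ng/mL IL-10 for 195 min. The group called late IL-10 received LPS for 195 min and IL-10 only over the final 30 min. The LPS group received 1 ng/mL LPS alone for 195 min, and the untreated group received neither. Each group had 2 libraries, from separate pools of macrophages per the series' design text, which does not say how many animals a pool held.

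Glycolysis turns glucose into pyruvate in the cytosol, and lactate dehydrogenase turns pyruvate into lactate, which leaves the cell through monocarboxylate carriers. HIF-1 is a transcription factor of an alpha and a beta subunit. Prolyl hydroxylases, the Egln proteins, mark the alpha subunit for destruction when oxygen is present, and HIF-1 in turn raises the transcription of most glycolytic genes. Macrophages are known to use more glucose and release more lactate after LPS, and IL-10 is known to restrain that shift in such cells.

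Total RNA depleted of ribosomal RNA was sequenced, and the table gave each gene a mature mRNA value and a pre-mRNA value, which stands for transcripts not yet fully processed. Both are reads per gene divided by a size factor, called normalized reads below, and they are not corrected for gene length, so levels are compared between groups and not between genes. The deposited columns are group means. Each could be split exactly into the whole reads of its 2 libraries, called A and B, where A is the library with the larger size factor. The letters do not link libraries across groups or across the 2 measures. Summed over the genes of the table, reads ran between 21412968 and 53172133 a library for mRNA and between 8661271 and 31508394 for pre-mRNA. Reads outside these genes are not included. Across genes, the correlation of the 2 libraries in a group lay between 0.966 and 0.976. Changes are differences of log2(normalized reads + 1) with their standard errors, fitted with limma-trend over all genes of the table and all 8 libraries of a measure, with Benjamini-Hochberg adjustment. A gene is said to have risen or fallen when its adjusted p was under 0.05. Where groups are said not to overlap, 2 libraries are set against 2, mostly for genes already picked by their p. The share of all genes without overlap is not given, so such statements describe the values and add no support to a call.

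Macrophage identity was checked against marker genes. All 10 macrophage markers were in the table, with summed mRNA levels of 683100 and 666000 normalized reads under IL-10 throughout, 843900 and 839700 under late IL-10, 880100 and 823400 under LPS, and 535800 and 527600 in untreated cells. None of 6 B cell markers was among its genes, nor were the T cell genes Cd3e, Cd3d, Cd3g, Cd8a and Trac. The 4 T cell markers that were (of 9) summed to 7397 and 3433 under IL-10 throughout, 8124 and 4664 under late IL-10, 4531 and 7909 under LPS, and 19850 and 20910 in untreated cells. Of 12 neutrophil markers 8 were in the table, without Elane, Cxcr2, Retnlg and Ly6g, and 6 of the 8 rose with LPS in mRNA (median log2 change 3.03). Beside this and the marker counts below, 19.2% of all genes rose with LPS in mRNA and 16.5% fell. Camp rose by 4.24 ± 0.67, S100a9 by 3.66 ± 0.64 and Ltf by 3.18 ± 0.55. The mRNA sum of the 8 lay between 2400 and 5089 in the groups with LPS and at 2070 and 2657 in untreated cells. Mmp8 held 1599 and 2556 of the untreated sum. In pre-mRNA 4 neutrophil markers rose with LPS and 1 fell, where 22.3% of all genes rose and 21.7% fell. The marker that fell was Mmp8 (-3.17 ± 0.47). Of 10 dendritic cell markers 5 were in the table (Zbtb46, Xcr1, Itgax, Ccr7 and Batf3), and 4 of them rose with LPS in mRNA. Their summed mRNA level was 4661 and 3057 under IL-10 throughout, 16010 and 8944 under late IL-10, 9528 and 17950 under LPS, and 1363 and 2911 in untreated cells. Of 9 stromal and endothelial markers 4 were in the table, and 3 of them rose with LPS (median log2 change 3.14). They included Pdgfrb, a growth factor receptor, which rose by 3.83 ± 0.33. Pdgfrb fell with IL-10 throughout relative to LPS in both measures. It had 671.1 and 580.2 mRNA reads under IL-10 throughout, against 2604 and 2395 under LPS, and a log2 change of -2.92 ± 0.37 in pre-mRNA. Kdr, not called with LPS in either measure, also fell with IL-10 throughout in pre-mRNA (-2.67 ± 0.60). The stromal sum was 1338 and 1441 under IL-10 throughout, 4270 and 3659 under late IL-10, 3743 and 4359 under LPS, and 1346 and 2424 in untreated cells. Of 5 red cell and megakaryocyte markers 2 were in the table, and Pf4 rose with LPS by 2.93 ± 0.57. These lists moved with LPS, as did many of the genes described here, and their part in those changes was not tested. In bulk RNA, more cells of a type and more RNA per cell cannot be told apart. The make-up of the table also limits these counts. The smallest mRNA count was 11 in both LPS libraries and 0 in both untreated libraries. A marker low in untreated cells was thus in the table only when read under LPS, which tilts these counts towards rises. Pdgfra had 0 and 0 normalized mRNA reads in untreated cells and 32.97 and 22.41 under LPS. A marker missing from the table may have been low under LPS.

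LPS raised the mRNA of 16 of the 34 genes relative to untreated cells and lowered that of 2. Over all 11415 genes, 19.2% rose and 16.5% fell, so the share of risen genes among the 34 (47.1%) was above the background and the share of fallen genes (5.88%) below it. The median change was 1.04 for the 34 genes and 0.01 for all genes on the log2 scale. The pre-mRNA of 21 genes rose and that of 3 fell, against a background of 22.3% and 21.7% of 11131 genes, and the median change was 1.88 against 0.00. The calls depended in part on scaling. Dividing by total reads in place of size factors moved the median mRNA change of all genes to -0.74 and the median pre-mRNA change to -0.90. Under that scaling 7 of the 34 rose and 3 fell in mRNA, and 15 rose and 4 fell in pre-mRNA, while the share of risen genes among all calls was 21.1% in mRNA, against 53.8% with size factors, and 20.9% in pre-mRNA, against 50.7%. The mRNA calls lost were those of Ddit4, Eno1, Ero1l, Higd1a, Ldha, P4ha1, Pgam1, Slc16a1 and Slc16a3, and the pre-mRNA calls lost were those of Gpi1, Hk1, Ldha, Pgam1, Slc16a1 and Tpi1. The change of Eno1 mRNA was then 0.31, that of Gpi1 pre-mRNA 0.15 and that of Hk1 pre-mRNA 0.11.

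**Figure D1:**
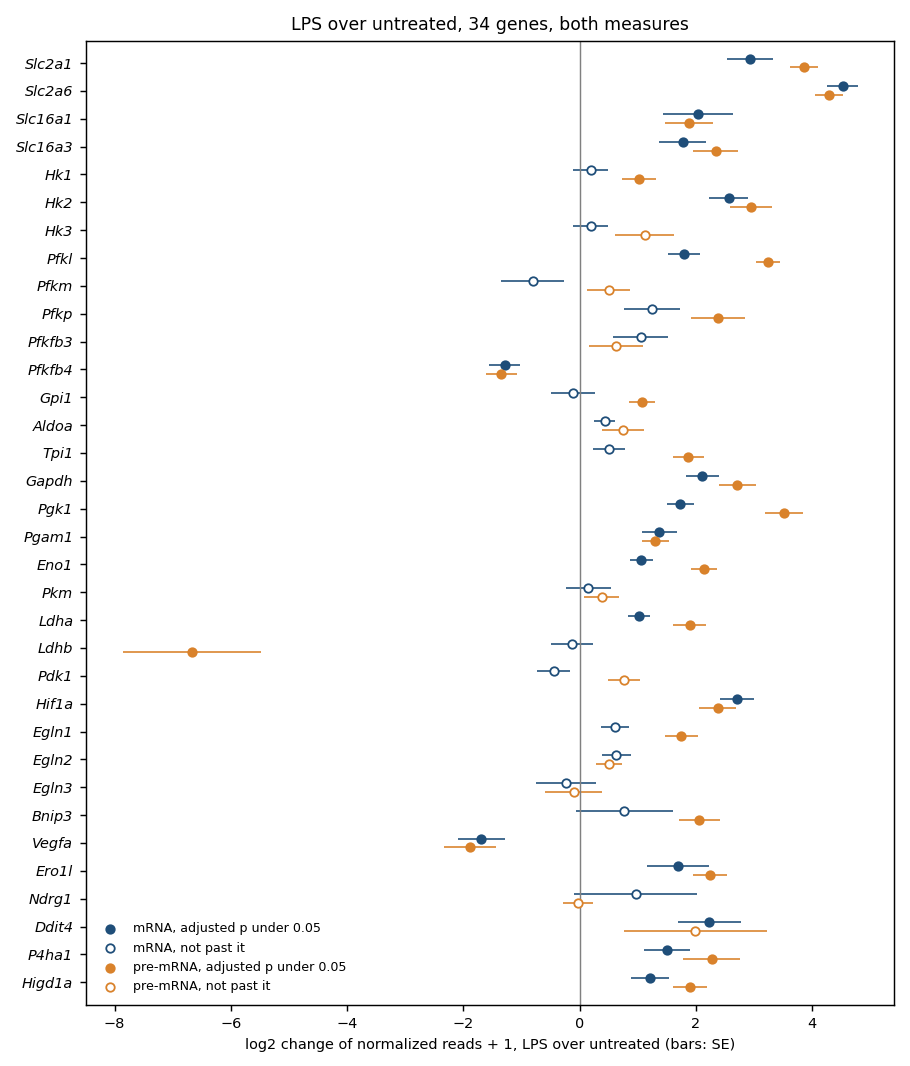
Log2 change of normalized reads + 1, LPS over untreated, for the 34 genes in mRNA (blue) and pre-mRNA (orange), with standard errors as bars. Filled points passed an adjusted p of 0.05 and open points did not. Most filled points lie right of 0, Pfkfb4 and Vegfa lie left of it in both measures, and the pre-mRNA of Ldhb lies at -6.67.

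All 4 glucose and lactate carriers rose with LPS in both measures. Slc2a1, which encodes the glucose carrier GLUT1, had 15120 and 14780 normalized mRNA reads in LPS cells, against 1254 and 3071 in untreated cells. Its mRNA rose by 2.93 ± 0.39 (SE, n = 2 libraries a group) and its pre-mRNA by 3.86 ± 0.24 on the log2 scale. Slc2a6, a hexose carrier of inflammatory macrophages, had the largest mRNA change of the 34. It stood at 32640 and 32360 in LPS cells and at 1095 and 1818 in untreated cells, a change of 4.52 ± 0.26 (limma-trend, adjusted p = 0.0001). The groups lay far apart for both glucose carriers, although the untreated libraries of Slc2a1 differed 2.45-fold. Slc16a3, the lactate exporter MCT4, had 8090 and 7484 mRNA reads in LPS cells and 1423 and 3679 in untreated cells (log2 change 1.77 ± 0.40). Slc16a1, the related carrier MCT1, had 1138 and 3258 in LPS cells and 531.8 and 408.4 in untreated cells (2.04 ± 0.60). The groups did not overlap for either lactate carrier, and the spread within a group was wider than for Slc2a6.

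Of the 3 hexokinases, which trap glucose in the cell as its phosphate, only Hk2 rose in mRNA. It had 18760 and 32020 mRNA reads in LPS cells and 4175 and 4131 in untreated cells, a change of 2.56 ± 0.34, and its pre-mRNA rose by 2.95 ± 0.36. The pre-mRNA of Hk1 also rose, by 1.02 ± 0.30, while its mRNA changed by 0.19 ± 0.30 without a call. Hk3 was not called in either measure, with 0.19 ± 0.30 in mRNA and 1.12 ± 0.51 in pre-mRNA.

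Phosphofructokinase commits sugar to glycolysis, and its activity is set by a signal sugar phosphate that the Pfkfb enzymes make and break. The liver-type subunit Pfkl rose by 1.79 ± 0.28 in mRNA, with 4401 and 4516 reads in LPS cells and 960.5 and 1736 in untreated cells, and by 3.24 ± 0.20 in pre-mRNA. The platelet-type subunit Pfkp rose in pre-mRNA by 2.38 ± 0.46, and its mRNA change of 1.25 ± 0.48 was not called. The muscle-type subunit Pfkm changed by -0.81 ± 0.54 in mRNA and 0.50 ± 0.37 in pre-mRNA, neither called. Pfkfb4 was one of the few genes to fall. It had 886.1 and 707.4 mRNA reads in LPS cells, against 2295 and 1645 in untreated cells, with log2 changes of -1.29 ± 0.27 in mRNA and -1.35 ± 0.27 in pre-mRNA. Pfkfb3, the isoform that mostly makes the activator, had 2739 and 5679 mRNA reads in LPS cells and 1488 and 2423 in untreated cells. That change of 1.05 ± 0.47 was not called (limma-trend, adjusted p = 0.12), nor was its pre-mRNA change of 0.62 ± 0.46.

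Among the 8 other glycolytic enzymes, 4 rose in mRNA and 6 in pre-mRNA. Gapdh, which reduces NAD on the way, rose by 2.11 ± 0.29 in mRNA. Pgk1, the ATP-yielding phosphoglycerate kinase, had 1166 and 1294 mRNA reads in LPS cells and 323.5 and 422 in untreated cells, a rise of 1.73 ± 0.23, and its pre-mRNA rose by 3.51 ± 0.33. Pgam1, the mutase that follows it, rose by 1.37 ± 0.30 in mRNA and 1.30 ± 0.23 in pre-mRNA. Eno1, the enolase, rose by 1.06 ± 0.20 in mRNA and 2.14 ± 0.22 in pre-mRNA. Gpi1, which isomerizes glucose phosphate, and Tpi1, which balances the triose phosphates, rose in pre-mRNA by 1.07 ± 0.22 and 1.87 ± 0.27, and their mRNA changes of -0.11 ± 0.38 and 0.50 ± 0.28 were not called. The aldolase gene Aldoa and the pyruvate kinase gene Pkm were not called in either measure, with mRNA changes of 0.43 ± 0.18 and 0.15 ± 0.39. Their mRNA levels were already 15720 and 16730 normalized reads for Aldoa and 9393 and 15770 for Pkm in untreated cells.

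Values of several of these enzymes are uncertain, because 14 of the 34 genes have at least 1 other annotated gene whose transcript matches theirs at 90% identity or more over 300 bases or more. Gapdh has 177 such genes, of which 168 are annotated pseudogenes, and its mRNA values were low, at 158.7 and 197.5 in LPS cells and 39.69 and 40.96 in untreated cells. Ldha has 13, Pkm 8, Eno1, Aldoa and Bnip3 6 each, Pgk1 4 and Pgam1 3. How the reads of such genes were counted is not given in the sources used here. A further limit is overlap: Hk3, Pfkm, Pfkp, Tpi1, Gapdh and Egln2 each overlap another gene of the table on the opposite strand (Unc5a, Senp1, Pitrm1, Spsb2, Iffo1 and Cyp2t4), and whether counting used strand is not stated. The kit keeps strand information.

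Of the 3 genes that set the fate of pyruvate, Ldha rose and the pre-mRNA of Ldhb fell to a few reads. Ldha, the lactate dehydrogenase subunit that favours lactate, had 9770 and 10430 mRNA reads in LPS cells and 5280 and 4705 in untreated cells (log2 change 1.02 ± 0.19), and its pre-mRNA rose by 1.89 ± 0.28. Ldhb, the subunit of the heart-type enzyme, had 0 and 3 pre-mRNA reads in the LPS libraries, against 617 and 108 in the untreated libraries. Scaled for library size, the summed pre-mRNA reads were 150.1-fold lower with LPS, with an exact 95% interval of 51.2 to 729 that covers counting error only. The Ldhb mRNA stood at 227.7 and 197.5 in LPS cells and at 275.2 and 196.1 in untreated cells, and the 2 groups overlapped. Pdk1, a kinase that shuts pyruvate out of the mitochondrial dehydrogenase, was not called, with -0.45 ± 0.28 in mRNA and 0.76 ± 0.28 in pre-mRNA.

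Hif1a, the oxygen-regulated subunit of HIF-1, rose with LPS in both measures. Its mRNA stood at 20750 and 25140 in LPS cells and at 4065 and 2999 in untreated cells, a change of 2.71 ± 0.29 (limma-trend, adjusted p = 0.00078), and its pre-mRNA rose by 2.37 ± 0.32. In mRNA the lowest LPS library lay more than 5-fold above the highest untreated library. Of the 3 prolyl hydroxylases, Egln1, the main one acting on HIF in most cells, rose in pre-mRNA by 1.75 ± 0.29 with an uncalled mRNA change of 0.61 ± 0.24. Egln2 was called in neither measure (0.63 ± 0.25 in mRNA). Egln3, itself a HIF-1 target, had 161.8 and 173.7 mRNA reads in LPS cells, between the 342 and 114.2 of the untreated libraries, and its change of -0.24 ± 0.52 was not called.

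Of the 7 other HIF-1 targets, 4 rose in mRNA, 1 fell and 2 were not called. Vegfa, the vascular growth factor and a much used readout of HIF-1, fell. It had 1145 and 1696 mRNA reads in LPS cells, against 3086 and 6567 in untreated cells, and its log2 change was -1.69 ± 0.41 in mRNA and -1.89 ± 0.45 in pre-mRNA. Ddit4, a stress-induced brake on the growth kinase mTOR, rose by 2.23 ± 0.54 in mRNA. Ero1l, an oxidase of the endoplasmic reticulum, rose by 1.69 ± 0.54, the collagen prolyl hydroxylase subunit P4ha1 by 1.50 ± 0.40, and the mitochondrial survival factor Higd1a by 1.21 ± 0.32. The mitophagy receptor gene Bnip3 rose only in the pre-mRNA call, by 2.06 ± 0.35, with an mRNA change of 0.77 ± 0.84. The stress gene Ndrg1 was not called, with 0.96 ± 1.05 in mRNA and -0.03 ± 0.26 in pre-mRNA. In mRNA the standard error was largest for Ndrg1 and Bnip3 among the 34, because their libraries differed within groups, as described further on.

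Not every LPS call held when 1 library was left out. Of the 18 mRNA calls, those of Slc2a1, Slc2a6, Hk2, Pfkl, Gapdh, Pgk1, Eno1 and Hif1a were still made when any 1 of the 4 libraries was left out, although that of Eno1 was lost with total-read scaling. The other 10 kept their direction and lost the call without at least 1 library, with a highest adjusted p (limma-trend) that ran from 0.055 for Ldha to 0.22 for Ero1l. Of the 24 pre-mRNA calls 21 were still made whichever library was left out, and Hk1, P4ha1 and Slc16a1 were not, with a highest adjusted p (limma-trend) of 0.14, 0.063 and 0.052.

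The difference between the pre-mRNA change and the mRNA change with LPS was called for Ldhb alone. The pre-mRNA change minus the mRNA change had a median of 0.59 over the 34 genes and -0.02 over all genes. For Ldhb it was -6.54 ± 1.30 (limma-trend, adjusted p = 0.033), where 1.24% of all genes were called in either direction. That call was lost in 7 of the 8 fits without 1 library, with a difference between -7.71 and -5.37. The next were Pgk1 with 1.78 ± 0.41, Pfkl with 1.45 ± 0.35 and Eno1 with 1.08 ± 0.27, which missed the threshold at an adjusted p (limma-trend) of 0.069, 0.075 and 0.084. At an unadjusted p under 0.05 the pre-mRNA change was the higher for 8 of the 34 and the lower for 1, where 3.34% of all genes were higher and 7.3% lower.

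**Figure D2:**
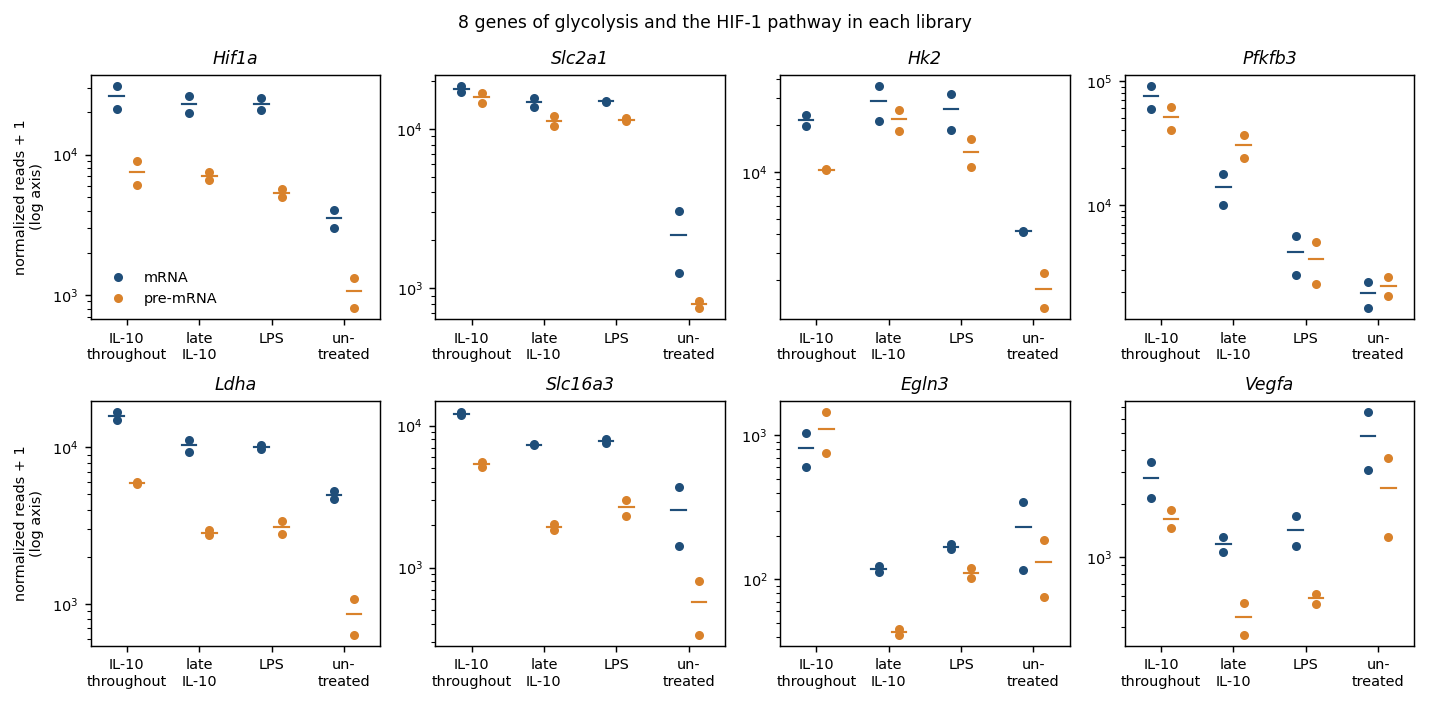
Normalized reads + 1 in each library on log axes for Hif1a, Slc2a1, Hk2, Pfkfb3, Ldha, Slc16a3, Egln3 and Vegfa, in mRNA (blue) and pre-mRNA (orange), with the group mean as a short line. Hif1a, Slc2a1, Hk2 and Ldha are high in the 3 groups with LPS, Pfkfb3 is highest in cells given IL-10 throughout and intermediate with late IL-10, and Egln3 is high only in cells given IL-10 throughout.

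The next comparisons ask what IL-10 adds to LPS. They share the LPS libraries, the libraries given IL-10 throughout or the late IL-10 libraries, so their values are set side by side and not counted as separate evidence. In the pre-mRNA, 5 genes rose and 1 fell with IL-10 throughout. Of these, the 250 bases before the RefSeq transcription start that lies farthest upstream are printed for the 4 genes that hold a core of the hypoxia response element, together with Ldha, a textbook HIF-1 target (build GRCm38.p6, 5′ to 3′ on the strand of the gene). Capitals mark ACGTG or GCGTG on either strand, so CACGT and CACGC are the same letters read on the other strand, and CACGTG holds ACGTG on both.
Pfkfb3 (chr2:11553930-11554179, minus strand): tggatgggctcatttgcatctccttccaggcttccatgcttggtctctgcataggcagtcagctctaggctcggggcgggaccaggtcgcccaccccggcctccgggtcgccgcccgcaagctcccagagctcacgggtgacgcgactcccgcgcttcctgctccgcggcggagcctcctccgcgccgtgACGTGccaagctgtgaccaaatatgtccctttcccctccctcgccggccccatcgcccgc
Egln3 (chr12:54203875-54204124, minus strand): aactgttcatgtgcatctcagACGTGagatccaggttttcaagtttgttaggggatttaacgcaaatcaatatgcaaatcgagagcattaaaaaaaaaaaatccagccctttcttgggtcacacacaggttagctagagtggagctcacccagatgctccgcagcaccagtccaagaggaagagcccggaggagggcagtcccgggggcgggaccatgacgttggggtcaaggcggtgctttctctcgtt
Bnip3 (chr7:138909507-138909756, minus strand): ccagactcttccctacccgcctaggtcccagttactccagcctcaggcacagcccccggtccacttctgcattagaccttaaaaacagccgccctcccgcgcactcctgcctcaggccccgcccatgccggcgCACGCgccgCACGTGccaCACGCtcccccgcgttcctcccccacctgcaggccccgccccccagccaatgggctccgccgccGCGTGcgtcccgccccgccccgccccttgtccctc
Slc2a6 (chr2:27027999-27028248, minus strand): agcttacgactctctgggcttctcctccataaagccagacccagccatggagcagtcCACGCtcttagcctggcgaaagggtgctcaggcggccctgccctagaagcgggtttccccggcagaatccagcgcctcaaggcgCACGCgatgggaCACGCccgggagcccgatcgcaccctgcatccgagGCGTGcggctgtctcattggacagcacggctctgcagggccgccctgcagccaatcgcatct
Ldha (chr7:46845554-46845803, plus strand): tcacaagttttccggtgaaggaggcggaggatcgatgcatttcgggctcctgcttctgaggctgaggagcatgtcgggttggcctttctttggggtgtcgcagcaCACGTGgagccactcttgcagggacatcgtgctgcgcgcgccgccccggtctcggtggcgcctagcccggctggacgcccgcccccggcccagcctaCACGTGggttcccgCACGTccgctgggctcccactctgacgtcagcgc
Pfkfb3 and Egln3 hold 1 match each, Bnip3 and Ldha 5 each and Slc2a6 4, while the windows of the other 2 genes, Pkm and Gpi1, hold none. RefSeq promoters were found for 32 of the 34 genes, not for Ero1l and Ndrg1. ACGTG or its complement stood in 17 of the 32 windows (53.1%), against 22% of 8802 genes of the table and 16.5% of all 27025 genes with a promoter. GCGTG stood in 17 of 32 (53.1%), against 46.2% and 28.3%. TTCNNNGAA, the letters bound by STAT factors such as the STAT3 that the IL-10 receptor activates, stood in 0 of 32, against 6.08% of the genes of the table. Such matches describe the letters of these windows only. The 34 were picked as glycolysis genes and known HIF-1 targets, so a higher share of this core can follow from that choice.

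With IL-10 throughout, the mRNA of 2 of the 34 genes rose over LPS alone and none fell. Over all genes 1.19% rose and 1.05% fell. Pfkfb3 rose most. It had 91450 and 58870 mRNA reads under IL-10 throughout, against 2739 and 5679 under LPS, a change of 4.22 ± 0.47 (limma-trend, adjusted p = 0.009). Its pre-mRNA stood at 61530 and 40350 under IL-10 throughout, against 5040 and 2343 under LPS, a change of 3.86 ± 0.46. The gene lies at chr2:11471433-11554077 on the minus strand in GRCm38. Its lowest library with IL-10 was more than 10-fold above its highest library with LPS alone in mRNA. Ddit4 was the other, with 4649 and 3412 mRNA reads under IL-10 throughout, against 567.7 and 207.3 under LPS (3.53 ± 0.54, limma-trend, adjusted p = 0.026). Its pre-mRNA change of 3.45 ± 1.23 rested on few reads in LPS cells and was not called.

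In the pre-mRNA, Pfkfb3, Pkm, Egln3, Bnip3 and Gpi1 rose and Slc2a6 fell, where 2.44% of all genes rose and 4.26% fell. Pkm, the pyruvate kinase of the last step, had 26170 and 24430 pre-mRNA reads under IL-10 throughout and 5271 and 7042 under LPS, a change of 2.05 ± 0.30 (limma-trend, adjusted p = 0.012). Egln3 had 1449 and 751.8 under IL-10 throughout and 101.1 and 118.8 under LPS (3.24 ± 0.49). Bnip3 had 5887 and 3662 under IL-10 throughout and 1835 and 1447 under LPS (1.51 ± 0.35). None of these 3 genes overlapped between the groups. Gpi1 had 7485 and 7252 under IL-10 throughout and 3463 and 3906 under LPS, a change of 1.00 ± 0.22 with close duplicates in both groups. Slc2a6, the carrier that LPS raised most, had 2794 and 3216 under IL-10 throughout and 7035 and 8083 under LPS, and fell by 1.33 ± 0.24 on the log2 scale. Its mRNA change of -0.53 ± 0.26 was not called.

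The mRNA of Egln3, with 1031 and 599.3 reads under IL-10 throughout and 161.8 and 173.7 under LPS, changed by 2.22 ± 0.52 and missed the threshold (limma-trend, adjusted p = 0.093). Gapdh mRNA did so too, at 1.18 ± 0.29 (limma-trend, adjusted p = 0.11). The genes always followed in every library were not called in mRNA, apart from Pfkfb3. Slc2a1 mRNA stood at 18760 and 17210 under IL-10 throughout, against 15120 and 14780 under LPS (0.27 ± 0.39). Hk2 mRNA had 23350 and 19700 under IL-10 throughout and 18760 and 32020 under LPS (-0.19 ± 0.34). Hif1a mRNA had 31030 and 21010 under IL-10 throughout and 20750 and 25140 under LPS (0.16 ± 0.29). The groups overlapped for Hk2 and Hif1a and were separate, though close, for Slc2a1. Ldha mRNA had 16840 and 14950 under IL-10 throughout and 9770 and 10430 under LPS, a change of 0.65 ± 0.19 without a call (limma-trend, adjusted p = 0.16). Slc16a3 mRNA had 12480 and 11840 under IL-10 throughout and 8090 and 7484 under LPS (0.64 ± 0.40). Vegfa mRNA had 3409 and 2142 under IL-10 throughout and 1145 and 1696 under LPS (0.96 ± 0.41, not called). A missed threshold does not show that the groups are alike. The median standard error of the 34 was 0.33 in mRNA.

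With the called genes counted in, the pre-mRNA values leaned upward at an unadjusted threshold. At an unadjusted p under 0.05, 15 of the 34 were higher and 3 lower with IL-10 throughout in pre-mRNA, where 9.46% of all genes were higher and 13.6% lower. In mRNA 7 were higher and 0 lower, where 6.27% were higher and 8.37% lower. The median change of the 34 was 0.62 in pre-mRNA and 0.27 in mRNA, against 0.00 and -0.02 over all genes. Other pre-mRNA changes above 1 on the log2 scale were not called by limma-trend, namely Slc16a1 (1.57 ± 0.41), Vegfa (1.49 ± 0.45), Tpi1 (1.09 ± 0.27), Pfkfb4 (1.09 ± 0.27), Slc16a3 (1.02 ± 0.39) and Ddit4. Limma-voom called Slc16a1 and Tpi1, at an adjusted p of 0.044 and 0.039. It did not call Bnip3 and Gpi1, at an adjusted p of 0.056 and 0.058, so that its count of risen genes was also 5. The platelet-type Pfkp (-1.43 ± 0.46) and Hk3 (-1.23 ± 0.51) stood lower, also without a call by either. Total-read scaling placed the median of all genes at 0.25 in mRNA, against -0.02 with size factors, and at 0.46 in pre-mRNA, against 0.00. It gave 3 risen and 0 fallen genes in mRNA and 11 risen and 0 fallen in pre-mRNA, and Slc2a6 lost its call at a change of -0.87. The share of risen genes among all calls was 63.3% in mRNA under that scaling, against 53.1% with size factors, and 52.5% in pre-mRNA, against 36.5%.

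Among the 8 calls of IL-10 throughout over LPS, only that of Pfkfb3 pre-mRNA was still made whichever of the 4 libraries was left out, at changes of 3.31 to 4.41. Pfkfb3 mRNA lost its call without library A given IL-10 throughout (3.90, limma-trend, adjusted p = 0.06). Ddit4 mRNA lost it without LPS library B, at 2.81, or without library A or B given IL-10 throughout, at 3.31 and 3.76. Pkm, Egln3 and Slc2a6 pre-mRNA lost it without LPS library A or either library given IL-10 throughout, at 1.84 to 2.10, 2.77 to 3.71 and -1.43 to -1.23. Bnip3 and Gpi1 pre-mRNA lost it whichever of the 4 libraries was left out, at 1.17 to 1.85 and 0.92 to 1.09. No sign changed. The pre-mRNA change minus the mRNA change was called for 0 of the 34 (limma-trend), where 0.0629% of all genes were called. At an unadjusted p under 0.05 it was higher for 1 and lower for 1, where 3.78% of all genes passed in either direction.

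**Figure D3:**
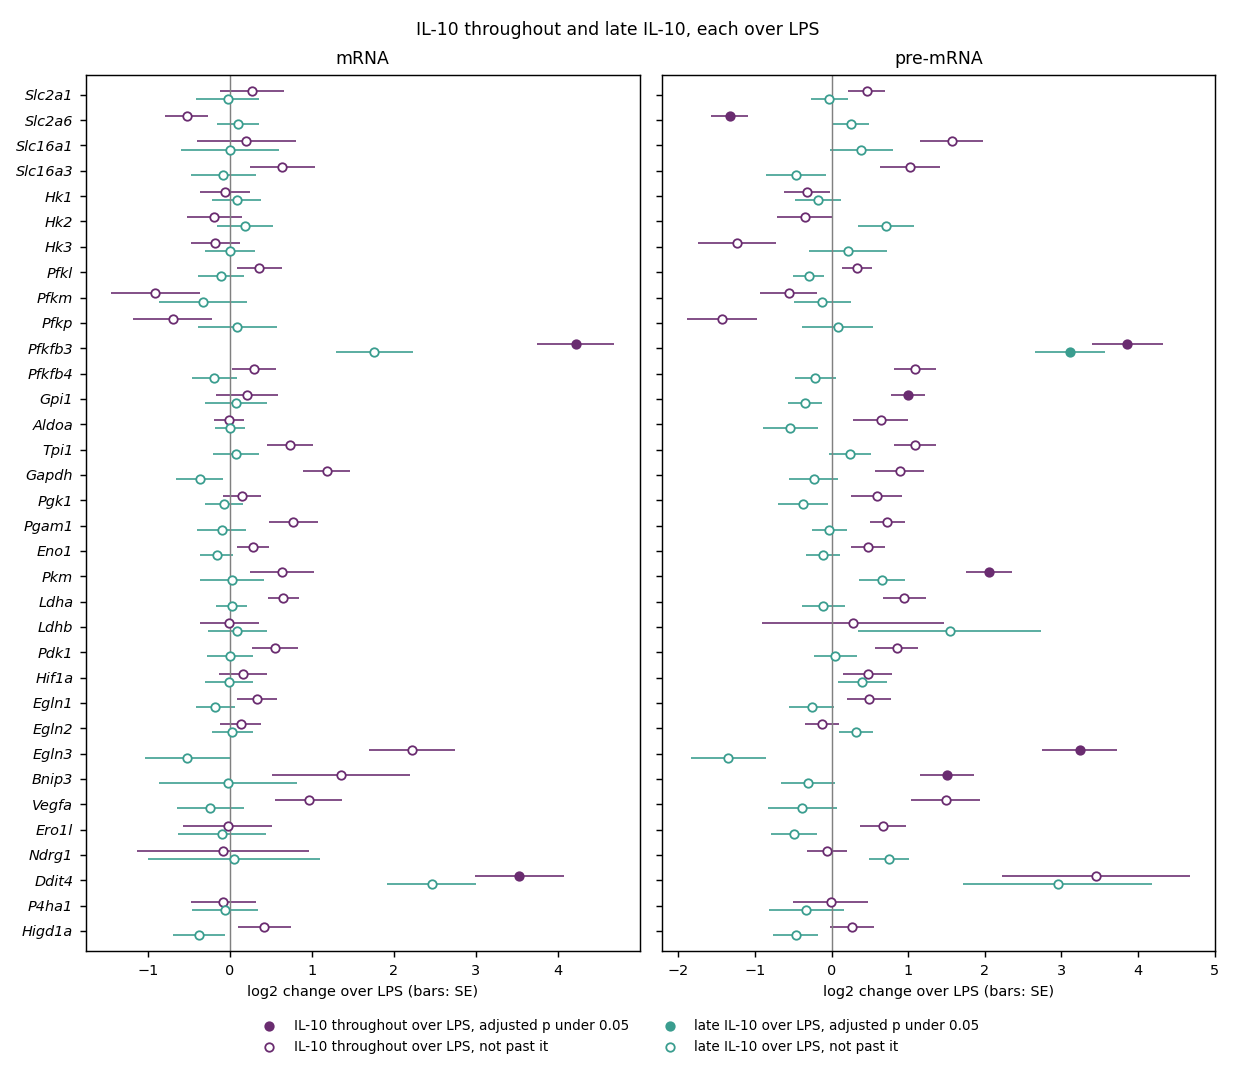
Log2 change over LPS alone for the 34 genes with IL-10 throughout (purple) and late IL-10 (green), in mRNA on the left and pre-mRNA on the right, with standard errors as bars and filled points for an adjusted p under 0.05. Pfkfb3 is filled for both treatments in pre-mRNA, at 3.86 and 3.11, and for IL-10 throughout alone in mRNA, at 4.22.

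Late IL-10, present for 30 min, raised the pre-mRNA of 1 gene of the 34, Pfkfb3. It had 36570 and 24050 pre-mRNA reads under late IL-10, against 5040 and 2343 under LPS, a change of 3.11 ± 0.46 (limma-trend, adjusted p = 0.025). Over all genes 0.979% rose and 0.0629% fell. The Pfkfb3 mRNA stood at 17950 and 9971 under late IL-10, against 2739 and 5679 under LPS, and its change of 1.76 ± 0.47 was not called (limma-trend, adjusted p = 1). The groups did not overlap in either measure. Without LPS library B, or without either late IL-10 library, the pre-mRNA call was lost at changes of 2.56 to 3.41.

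In mRNA, late IL-10 gave 0 called genes of the 34 by limma-trend, as over all genes, where 0% rose and 0% fell, and limma-voom likewise gave 0. At an unadjusted p under 0.05, 2 of the 34 were higher and 0 lower, where 0.806% of all genes were higher and 0.131% lower. They were Pfkfb3 and Ddit4. Ddit4 mRNA had 1504 and 2390 reads under late IL-10, against 567.7 and 207.3 under LPS, a change of 2.46 ± 0.54 with no overlap between the groups. In pre-mRNA 3 were higher at that threshold and 1 lower, where 4.98% and 2.63% of all genes were. The 3 were Pfkfb3, Ndrg1 (0.75 ± 0.26) and Ddit4 (2.95 ± 1.23), and the 1 was Egln3, with 44.15 and 40.4 pre-mRNA reads under late IL-10, against 101.1 and 118.8 under LPS (-1.35 ± 0.49). The pre-mRNA change minus the mRNA change was called for 0 of the 34 (limma-trend), and 0 passed an unadjusted p under 0.05, where 0.135% and 3.46% of all genes did.

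Over all 34 genes the median change with late IL-10 was -0.01 in mRNA and -0.11 in pre-mRNA, against -0.01 and -0.05 for all genes of the table. Hif1a mRNA had 26110 and 19700 reads under late IL-10, which bracket the 20750 and 25140 under LPS (-0.01 ± 0.29). Slc2a1 had 15590 and 13820 under late IL-10 (-0.03 ± 0.39), Hk2 36050 and 21360 (0.18 ± 0.34), Ldha 11180 and 9392 (0.02 ± 0.19), Slc16a3 7405 and 7311 (-0.08 ± 0.40) and Vegfa 1295 and 1067 (-0.24 ± 0.41), all in mRNA.

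IL-10 throughout was then set against late IL-10. In pre-mRNA 4 genes rose and 1 fell, where 0.755% of all genes rose and 2.2% fell. Egln3, the prolyl hydroxylase, had 1449 and 751.8 pre-mRNA reads under IL-10 throughout, against 44.15 and 40.4 under late IL-10, a change of 4.60 ± 0.49 (limma-trend, adjusted p = 0.014). Bnip3 had 5887 and 3662 under IL-10 throughout and 1759 and 984.1 under late IL-10 (1.82 ± 0.35). Gpi1 had 7485 and 7252 under IL-10 throughout and 2686 and 3102 under late IL-10 (1.35 ± 0.22). Pfkfb4 had 1302 and 1490 under IL-10 throughout and 451.2 and 705.8 under late IL-10 (1.30 ± 0.27). Slc2a6 fell by 1.58 ± 0.24 on the log2 scale, with 2794 and 3216 under IL-10 throughout and 8629 and 9265 under late IL-10. The groups did not overlap for any of the 5. Pfkfb3 pre-mRNA differed by 0.75 ± 0.46 without a call.

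In mRNA 0 genes of the 34 were called by limma-trend for this contrast and 1, Gapdh, by limma-voom, where 0.517% of all genes rose and 0.569% fell by limma-trend. At an unadjusted p under 0.05, 7 of the 34 were higher in mRNA and 1 lower, where 6.04% and 7.99% of all genes were. In pre-mRNA 20 were higher and 5 lower, where 8.73% and 12.9% of all genes were. The largest mRNA differences were those of Egln3 (2.74 ± 0.52, limma-trend, adjusted p = 0.071) and Pfkfb3 (2.46 ± 0.47, limma-trend, adjusted p = 0.073). The median difference of the 34 was 0.36 in mRNA and 0.75 in pre-mRNA, against -0.01 and 0.00 over all genes. Total-read scaling placed the median of all genes at 0.26 in mRNA and 0.43 in pre-mRNA and gave 2 risen genes in mRNA and 8 in pre-mRNA with none fallen, with 40.7% of all pre-mRNA calls upward, against 25.5% with size factors. Each of the 5 pre-mRNA calls was lost without at least 3 of the 4 libraries in turn. The changes then ran from 4.12 to 5.07 for Egln3, 1.40 to 2.24 for Bnip3, 1.25 to 1.46 for Gpi1, 0.98 to 1.62 for Pfkfb4 and -1.68 to -1.48 for Slc2a6, and only Egln3 kept its call once, without late IL-10 library B.

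**Figure D4:**
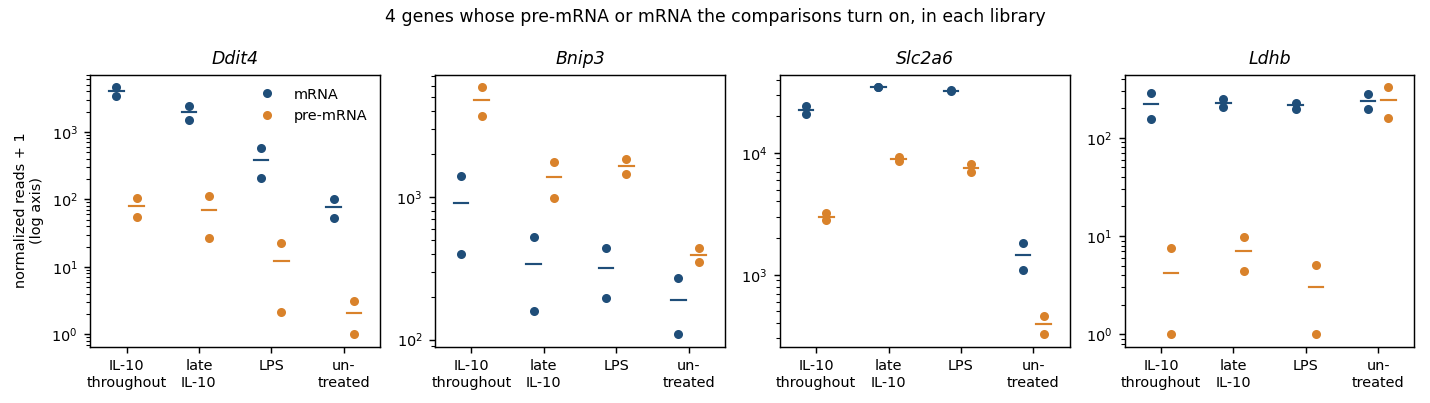
Normalized reads + 1 in each library on log axes for Ddit4, Bnip3, Slc2a6 and Ldhb, in mRNA (blue) and pre-mRNA (orange), with the group mean as a short line. Ddit4 mRNA is lowest in untreated cells and highest with IL-10 throughout, the Slc2a6 pre-mRNA with IL-10 throughout lies below late IL-10 and LPS, and Ldhb pre-mRNA is near 0 in the 3 groups with LPS while its mRNA is level.

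Set in order over the 4 groups, the levels fall into a few shapes. Pfkfb3 was highest with IL-10 throughout, then late IL-10, then LPS, then no treatment. Neighbours in that order did not overlap in mRNA, and in pre-mRNA LPS and untreated did. Ddit4 mRNA followed the same order with no overlap between neighbours. Hif1a, Slc2a1, Hk2, Pfkl and Pgk1 mRNA were low in untreated cells, and the other 3 groups lay within 2-fold of each other in their means. Vegfa mRNA was highest in untreated cells, where the lower library (3086) lay below the upper one of IL-10 throughout (3409). Ldhb pre-mRNA stayed near 0 in all 3 groups with LPS, with 0 and 6 reads under IL-10 throughout, 10 and 3 under late IL-10 and 0 and 3 under LPS, against 617 and 108 untreated. The Ldhb mRNA was 153.7 and 286.9 under IL-10 throughout, 204.8 and 249.8 under late IL-10 and 227.7 and 197.5 under LPS.

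The libraries of a group differed more for some HIF-1 targets than for most genes. Ndrg1 mRNA had 9618 and 3269 normalized reads in libraries A and B under IL-10 throughout, 14110 and 2679 under late IL-10, and 2453 and 14330 under LPS, against 2405 and 3886 in untreated cells. The 5.84-fold gap in the LPS group was the widest in mRNA. Bnip3 mRNA had 1405 and 395.3 under IL-10 throughout, 522.2 and 158 under late IL-10, 193.7 and 437 under LPS and 268.6 and 108 in untreated cells. Ero1l, P4ha1 and Slc16a1 mRNA were also higher in library A under both IL-10 treatments and in library B under LPS. So was the mRNA of other genes of the 34, among them Pfkfb3, Hif1a and Hk2. Of the 34, library A was the higher for 25 under IL-10 throughout and 24 under late IL-10, and library B for 21 under LPS. The dendritic cell, T cell and neutrophil lists showed the same order of libraries in those 3 groups, and their part was not tested. A gap of more than 2-fold between libraries was seen in mRNA for 4, 5, 5 and 7 of the 34 under IL-10 throughout, late IL-10, LPS and no treatment (11.8%, 14.7%, 14.7% and 20.6%), against 10.8%, 13.1%, 12.1% and 9.9% of all genes.

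**Figure D5:**
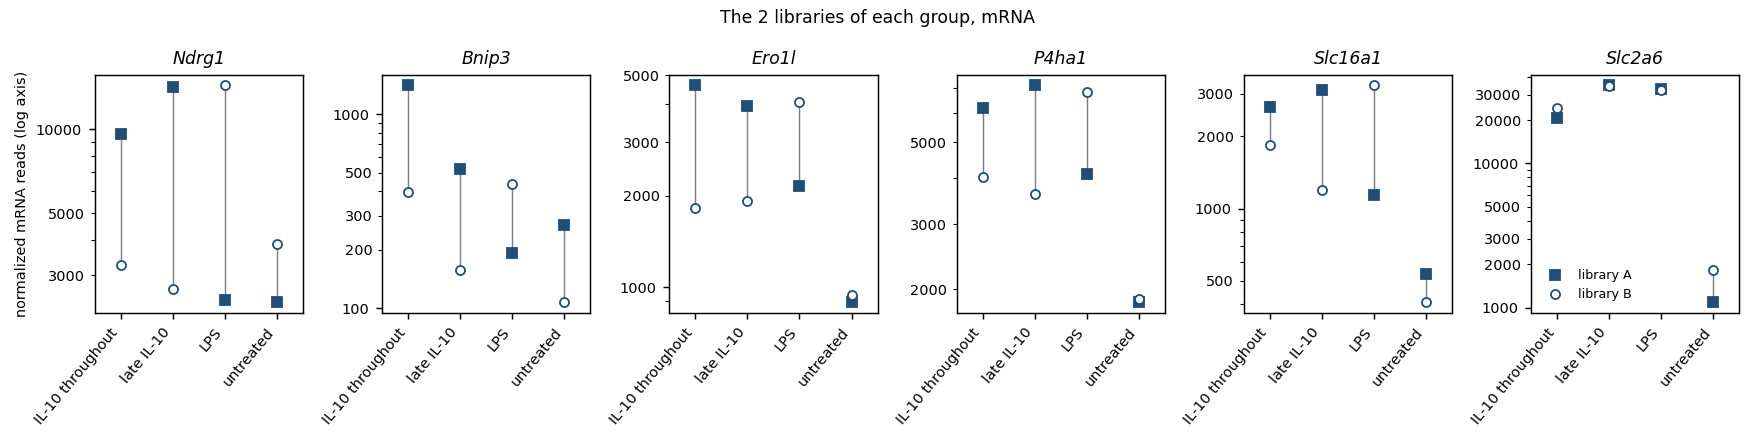
Normalized mRNA reads on log axes in library A (squares) and library B (circles) of each group for Ndrg1, Bnip3, Ero1l, P4ha1, Slc16a1 and Slc2a6, with the 2 libraries of a group joined by a line. For the first 5 genes library A is the higher with IL-10 throughout and late IL-10 and library B with LPS, while the libraries of Slc2a6 lie close together except in untreated cells.

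Other genes of glucose use and of the HIF pathway were read from 6 lists. Slc2a3 and Gbe1 are shared between lists and are counted in each. The LPS counts of the lists stand beside the shares over all genes. In mRNA 19.2% of all genes rose with LPS and 16.5% fell, and in pre-mRNA 22.3% rose and 21.7% fell. Whether any list differs from those shares was not tested. With LPS, 5 of 15 partners and regulators of HIF rose in mRNA and 1 fell. Cited2, which competes with HIF-1 for its coactivators, had 12460 and 18040 mRNA reads in LPS cells and 1898 and 2414 in untreated cells (2.81 ± 0.27). Arnt2, a beta partner of HIF alpha subunits, rose by 4.56 ± 0.50, and Siah2, a ubiquitin ligase that acts on the prolyl hydroxylases, by 2.14 ± 0.25. Of 29 further HIF-1 targets 9 rose and 6 fell. The adrenomedullin gene Adm rose by 5.28 ± 0.37 and the lysyl oxidase gene Lox by 4.02 ± 0.35. Nos2, the inducible nitric oxide synthase, had 6658 and 13430 mRNA reads in LPS cells, against 1.32 and 1.24 in untreated cells.

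Of 16 further glycolytic isozymes, side enzymes and brakes, 6 rose and 5 fell with LPS in mRNA. Gpd2, the mitochondrial glycerol phosphate dehydrogenase, rose by 2.29 ± 0.29, while Pfkfb2, another bifunctional regulator, fell by 2.04 ± 0.26 and Bpgm, the bisphosphoglycerate mutase, by 1.85 ± 0.31. Of 12 genes of the pyruvate dehydrogenase system 1 rose and 3 fell. Pdk2, a kinase that turns the enzyme off, had 61.82 and 46.22 mRNA reads in LPS cells and 490.8 and 638 in untreated cells (-3.36 ± 0.55). Of 10 glycogen genes 0 rose and 3 fell in mRNA, and of 9 pentose phosphate genes 0 were called in mRNA (limma-trend and limma-voom, with 1 higher and 0 lower at an unadjusted p under 0.05). In pre-mRNA, 3 glycogen genes rose and 4 fell, among them Gbe1, the branching enzyme gene, at 1.99 ± 0.41 and Pygb, a glycogen phosphorylase gene, at -1.61 ± 0.25. Of the pentose phosphate genes 1 rose and 2 fell in pre-mRNA, with Taldo1, the transaldolase gene, at -1.93 ± 0.41. The pre-mRNA of 2 pyruvate dehydrogenase genes rose and that of 3 fell, that of 3 further glycolytic genes rose and that of 3 fell, that of 4 HIF partners rose and that of 2 fell, and that of 11 further HIF-1 targets rose and that of 8 fell.

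With IL-10 throughout over LPS, 2 of 10 glycogen genes rose in mRNA and 3 in pre-mRNA, and none fell. Over all genes 1.19% rose and 1.05% fell in mRNA, and 2.44% rose and 4.26% fell in pre-mRNA. The lists were not tested against each other. Ppp1r3b, which brings a phosphatase to glycogen, had 2318 and 1593 mRNA reads under IL-10 throughout, against 354.5 and 389.4 under LPS (2.37 ± 0.24). Pygb rose by 1.56 ± 0.19 in mRNA, and Gys1, the glycogen synthase, rose by 1.79 ± 0.29 in pre-mRNA. Genes that make and genes that break down glycogen were thus both among those risen. Cited2 fell by 2.99 ± 0.27 in mRNA, to 1641 and 2162 under IL-10 throughout, against 12460 and 18040 under LPS. Of 29 further HIF-1 targets Ankrd37 rose by 2.16 ± 0.39 in mRNA, and Fam162a and Plod1 rose by 1.24 ± 0.24 and 1.22 ± 0.28 in pre-mRNA. Of the pyruvate dehydrogenase list only Mpc1, a subunit of the mitochondrial pyruvate carrier, was called, falling by 1.16 ± 0.20 in pre-mRNA. The pentose phosphate list and the further glycolytic genes had 0 calls in either measure. At an unadjusted p under 0.05 the pentose list had 0 higher and 0 lower in mRNA and 0 higher and 1 lower in pre-mRNA, and the further glycolytic genes had 0 higher and 2 lower, and 2 higher and 2 lower.

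With late IL-10 over LPS, 0 genes of the 6 lists were called in mRNA, where 0% of all genes rose and 0% fell. In pre-mRNA 1 gene was called, where 0.979% of all genes rose and 0.0629% fell. That gene was Pygb, with 3198 and 3743 pre-mRNA reads under late IL-10, against 887.2 and 1053 under LPS (1.84 ± 0.25). With IL-10 throughout over late IL-10, 2 glycogen genes rose in mRNA, 1 HIF partner fell and 1 further HIF-1 target rose. Over all genes 0.517% rose and 0.569% fell in mRNA. The other 3 lists had 0 calls by limma-trend or limma-voom. At an unadjusted p under 0.05 those lists held 1 higher and 2 lower genes in all, where 6.04% of all genes were higher and 7.99% lower. Ppp1r3b had 2318 and 1593 mRNA reads under IL-10 throughout, against 686.4 and 586.6 under late IL-10. The log2 changes of the other 3 were 1.19 ± 0.19 for Pygb, -2.57 ± 0.27 for Cited2 and 2.51 ± 0.39 for Ankrd37. In pre-mRNA 0.755% of all genes rose and 2.2% fell for this contrast. There 2 glycogen genes rose and 1 fell, with Gys1 at 2.08 ± 0.29 and Pygb at -1.45 ± 0.25. Of the further HIF-1 targets 2 rose and 1 fell in pre-mRNA, namely Fam162a (1.65 ± 0.24), P4ha2 (1.86 ± 0.39) and Plod2 (-2.76 ± 0.53).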

How the data were processed

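RNA-seq was read from 1 deposited table of 11415 genes with 8 value columns, an mRNA and a pre-mRNA column for each of 4 groups. The authors used the mouse build mm10 with Trim Galore and DESeq, per the submitters' processing notes. The sources used here give neither the aligner, nor the strand setting, nor how reads were divided between mRNA and pre-mRNA. As the values show, the deposited signal is reads per gene divided by size factors and averaged over the 2 libraries of a group.

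Each deposited value was split into whole reads of both libraries. All 8 columns split for 100% of values, with no second solution and a largest relative error of 5.6e-15, and the size factors matched the median of ratios of the recovered reads. Library identities are therefore inferred within a column. The series' design text names 2 independent macrophage pools. The p-values rest on the spread between the 2 libraries of a group, pooled over the 4 groups and moderated across genes.

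limma-trend (limma 3.58.1, R 4.3.3) was fitted to log2(normalized reads + 1) of all genes with a mean of at least 1, so that 11415 genes entered the mRNA fit and 11131 the pre-mRNA fit. The smallest mRNA count in both LPS libraries was 11, so genes low under LPS are not among those analysed. The split and the fits were tested on simulated data. Splitting used Python 3.11.15, numpy 2.4.6 and sympy 1.14.0, matches between transcripts BLAST 2.17.0, and figures matplotlib 3.10.9. Alternatives were 2 other pseudocounts, 2 other filters, total-read scaling, limma-voom on the recovered reads, a fit to the compared groups alone, the ratio of the deposited group values, and leaving out each library. The mean filter passed all 34 genes in both measures.

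The 34 genes, the pathway lists and the tests were chosen with earlier results of these data known. Genes past the threshold are named, 8 are given in every library in any case, and other lists are given by counts with at most 3 genes each, those with the smallest adjusted p. Values of 1 gene of these lists are not reported here.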

Additional observations from a re-analysis of the deposited data

Results flagged for a closer look

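Pre-mRNA of 5 genes differed between the 2 timings of IL-10 by a direct test of the difference (limma-trend, IL-10 throughout over late IL-10). The log2 differences were 4.60 for Egln3, 1.82 for Bnip3, 1.35 for Gpi1, 1.30 for Pfkfb4 and -1.58 for Slc2a6. Both timings share the LPS libraries, and the test sets them against each other without those libraries. With 2 libraries a group, no library could be tested as standing apart from its group.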

How the results depend on the processing

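No paired analysis was possible because the deposited columns carry no replicate number, so libraries of different groups could not be matched. No direction of a called change was reversed under any alternative run. Against the 18 genes called in mRNA with LPS, 10 were called with total-read scaling, not all of them among the 18. Without 1 library 10 to 14 were called. With IL-10 throughout over LPS, the 2 mRNA calls became 1 in a fit to the compared groups alone and 0 to 2 without 1 library, and the 6 pre-mRNA calls became 11 with total-read scaling, 3 with the compared groups alone and 1 to 8 without 1 library. Limma-voom also called 6 there, with Slc16a1 and Tpi1 in place of Bnip3 and Gpi1. With late IL-10 over LPS, the 1 pre-mRNA call became 0 with no filter, 0 with the compared groups alone and 0 to 1 without 1 library. For IL-10 throughout over late IL-10, the 0 mRNA calls became 2 with total-read scaling and 1 with limma-voom. The 5 pre-mRNA calls of that contrast became 0 with no filter, 8 with total-read scaling, 1 with the compared groups alone and 0 to 1 without 1 library. The 1 call of the pre-mRNA change minus the mRNA change with LPS became 0 with a pseudocount of 0.5, 0 with total-read scaling and 0 to 2 without 1 library. The cause of these changes was not tested, apart from the fewer libraries that 2 of the settings use. A count model on the recovered reads other than limma-voom was not run. Depth limits Ldhb and Ddit4 pre-mRNA, which had few reads.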
